A study of Mus musculus with 32 samples.

Results

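Integrins are adhesion receptors made of 1 alpha and 1 beta subunit, and 10 genes of such subunits were followed through the early blood hierarchy of young and aged mice: the alpha subunits Itga2, Itga4, Itga5, Itga6, Itga9 and Itgal and the beta subunits Itgb1, Itgb2, Itgb5 and Itgb7. They were taken by symbol from a table of raw read counts with 24421 genes, and all 10 passed the filter on low counts that left 14154 genes for testing. RNA-seq was performed on 8 bone marrow fractions of female C57BL/6 mice at 10 weeks (Young) and 20 months (Aged), with 2 libraries in each of 16 groups and 32 libraries in all. The Lin- Sca-1+ c-Kit+ fractions were hematopoietic stem cells (HSCs, CD34- CD150+ CD48- Flt3-) and the multipotent progenitors MPP1 (CD34+ CD150+ CD48- Flt3-), MPP2 (CD150+ CD48+), MPP3 (CD150- CD48+ Flt3-) and MPP4 (Flt3+). The restricted progenitors were GMPs (granulocyte-macrophage, Sca-1- c-Kit+ FcγR+ CD34+), MEPs (megakaryocyte-erythrocyte, Sca-1- c-Kit+ FcγR- CD34-) and CLPs (common lymphoid, IL-7R+ with low Sca-1 and c-Kit). The labels name no engineered allele and no treatment for either age. The study says that marrow was pooled before sorting and elsewhere describes duplicates as biologically independent, without telling which mice entered each library. Errors and p-values measure the spread between these libraries, which may be technical if both came from 1 pool.

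Within a heterodimer, the alpha subunit mostly sets which ligand is bound, and the beta subunit carries the tail that talin and kindlin engage to switch the receptor on. In the marrow, Itga4 with Itgb1 (VLA-4) binds VCAM-1 and fibronectin, and Itga5 with Itgb1 binds fibronectin. Itga6 pairs with Itgb1 to bind laminin, Itga2 with Itgb1 to bind collagen, and Itga9 with Itgb1 to bind tenascin-C, osteopontin and VCAM-1. Itgal with Itgb2 forms LFA-1, a receptor for ICAMs, Itgb7 pairs with Itga4 to bind MAdCAM-1, and Itgb5 pairs with Itgav to bind vitronectin. Such receptors are known for holding stem and progenitor cells in the niche and for guiding their homing.

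Total counts per library ran from 11237384 to 17723245. Levels are CPM (counts relative to a library total that was scaled by TMM), and 3 counts in a library, the limit that a count of 0 allows, came to 0.186 to 0.281 CPM. These limits cover counting error only, since amplified reads without molecular identifiers are not independent molecules. A gene is called higher or lower at an adjusted p under 0.01 (edgeR quasi-likelihood test, two-sided, Benjamini-Hochberg over all 14154 genes). In bulk samples, fewer cells of a type and less RNA per cell cannot be told apart. Among transcripts of the gated antigens, Slamf1 (CD150) was highest in HSCs at both ages. Flt3 was highest in MPP4 (group means 1063 CPM in Young, 732 in Aged), Il7r in CLPs (158 and 195) and Fcgr3 in GMPs (481 and 493). The other antigens, such as Cd34, Cd48 and Kit, are not reported here, so not every gate is covered. Markers of other cells moved with age in some fractions: over 8 B lineage markers the summed level was 205 to 210 CPM in Young and 0.861 to 1.22 CPM in Aged MEPs, and over 7 basophil and mast cell markers it was 1783 to 1837 in Young and 11.4 to 13.1 in Aged CLPs. No group could be tested without these libraries, because both libraries of the group carried the markers.

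Itgb5 lies at chr16:33829665-33949338 of mm10 (plus strand), and it was the member called lower with age in the most fractions. Itgb7 lies at chr15:102215995-102231944 (minus strand) and was called in both directions. Their promoters are shown as examples of a gene called in a single direction and a gene called in both. The windows are the 250 bases before the RefSeq start (build GRCm38.p6), chr16:33829415-33829664 for Itgb5 and chr15:102231936-102232185 for Itgb7, each 5′ to 3′ on the strand of the gene, with GC boxes (GGGCGG on either strand) in capitals.
Itgb5: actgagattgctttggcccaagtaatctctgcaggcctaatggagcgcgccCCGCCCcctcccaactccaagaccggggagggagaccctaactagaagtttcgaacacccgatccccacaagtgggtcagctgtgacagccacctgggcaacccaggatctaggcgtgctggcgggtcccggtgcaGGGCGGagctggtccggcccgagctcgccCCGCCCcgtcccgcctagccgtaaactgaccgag
Itgb7: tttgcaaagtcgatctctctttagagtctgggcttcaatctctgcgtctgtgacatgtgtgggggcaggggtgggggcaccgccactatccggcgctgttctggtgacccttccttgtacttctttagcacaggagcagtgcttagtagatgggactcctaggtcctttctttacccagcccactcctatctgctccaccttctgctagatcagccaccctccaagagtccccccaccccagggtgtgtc
The Itgb5 window held 3 GC boxes and 65.2% G and C, and the Itgb7 window 0 GC boxes and 56.0%. Of 32851 RefSeq windows of this length, 32.7% held a GC box. Further motifs were searched on both strands and were absent from both windows. They were AGATAA for GATA factors, present in 9.99% of all windows. TGTGGT for RUNX factors was present in 14% of them. GGAAGT for ETS factors was present in 19.7%. TGANTCA for AP-1 was present in 6.75%. CCAAT was present in 33.8%. No motif overlapped a GC box in these windows. Promoters were matched for 7 of 10 members. The RefSeq start of Itga9 lies 105002 bases inside the gene as GENCODE M21 draws it, so its window is not shown. A match of letters is a description and not a binding site.

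Levels per kilobase divide by all annotated exons of a gene, whichever isoforms were expressed, so comparisons between genes are approximate. Per kilobase, Itgb1 was the most abundant member in 14 of 16 groups. Its group means ran from 60.8 CPM per kb in Young CLPs to 97.8 in Aged MEPs. In CLPs the order changed, and Itgb7 led with 103.5 CPM per kb in Young and 186 in Aged libraries. Without division by length, Itgal stood above Itgb7 in CLPs, with means of 317 against 287 CPM in Young and 601 against 516 in Aged libraries. Among the 4 beta subunits, the share of Itgb1 was 68.3% ± 1.18 (SD, n = 2) in Young HSCs, 47.9% ± 0.141 in Young MPP4, 77.8% ± 1.51 in Young MEPs and 27.4% ± 1.41 in Young CLPs. Among the 6 alpha subunits, Itga5 and Itga6 together led in Young HSCs with 41.2% ± 1.42 and 41.5% ± 0.41, whereas Itgal held 70.1% ± 1.08 of their summed level per kb in Young CLPs. Itga2 was scarce throughout, with no group mean above 1.15 CPM per kb.

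**Figure D1:**
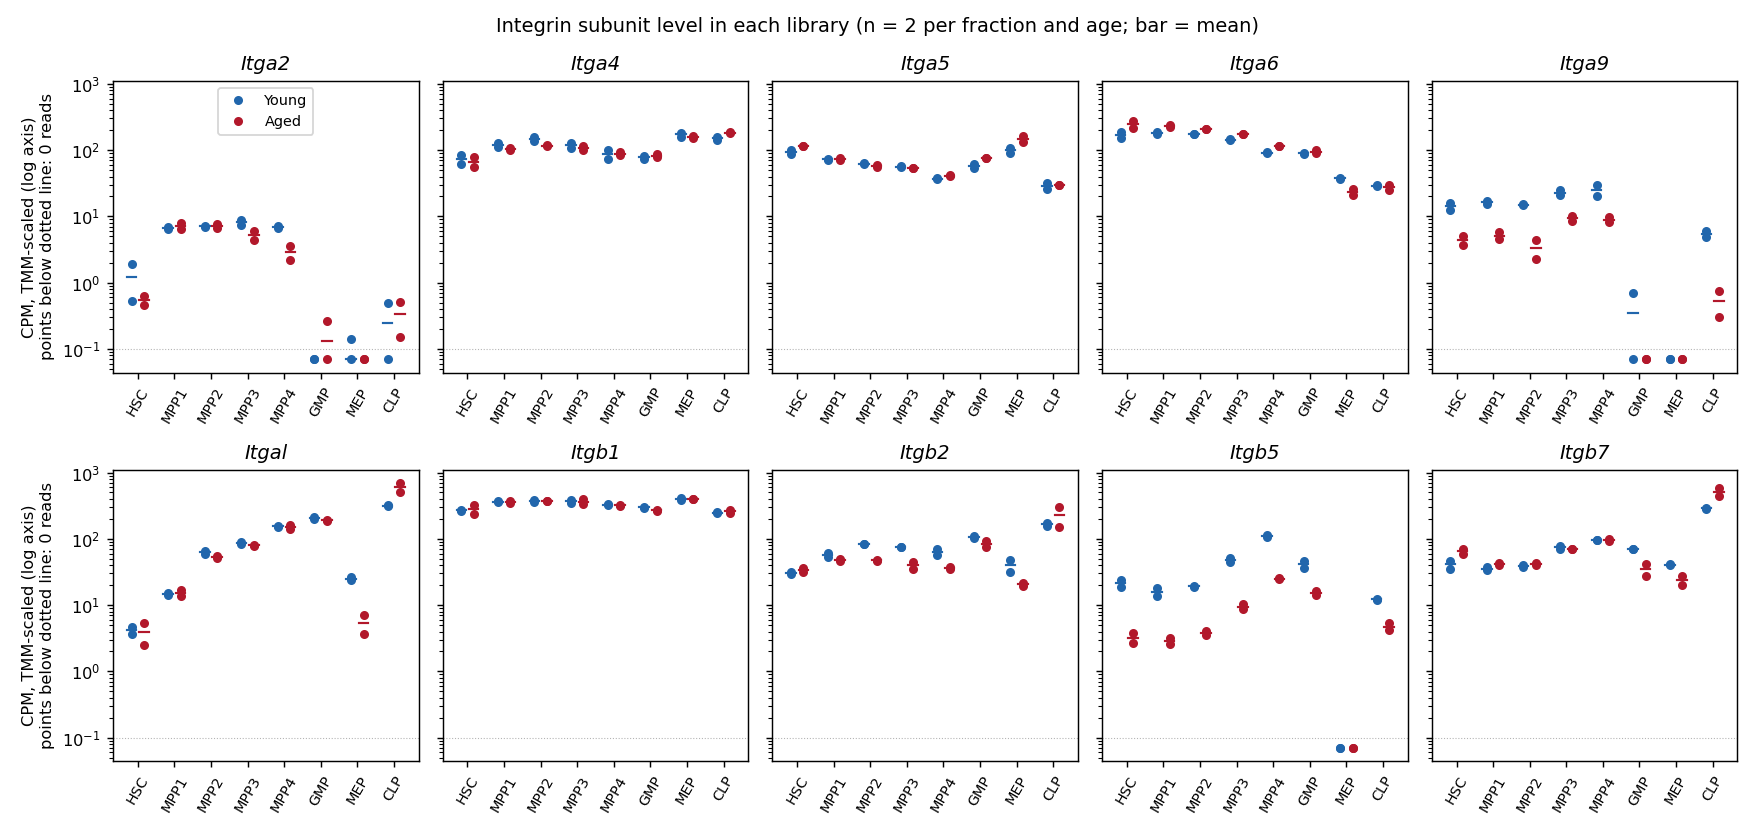
Level of each of the 10 subunit genes in each library, in TMM-scaled CPM on a log axis, by sorted fraction, with Young libraries in blue and Aged in red and a short bar at the mean of 2 libraries. Points below the dotted line had 0 reads, and Itgb5 has all 4 MEP libraries there while Itgb1 stays between 239 and 415 CPM throughout.

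Levels were first compared between fractions of the same age. Over the 28 pairs of fractions, 187 of 280 member comparisons were called in Young and 191 of 280 in Aged libraries, where 42.4% and 40.8% of all gene comparisons were called. Itgal separated the fractions most often, with 26 of 28 pairs called in Young libraries. Itgb1 did so least, with 11 of 28.

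Itgal, the alpha subunit of LFA-1, was lowest in HSCs and highest in CLPs. Young HSC libraries held 3.64 and 4.69 CPM and Young CLP libraries 324 and 309. Between them stood MPP1 (14.1 and 15.1), MPP2 (65.9 and 59.7), MPP3 (84.7 and 88.2), MPP4 (150 and 158) and GMPs (202 and 213). MEPs stood below the other restricted progenitors, at 26.2 and 23.5 CPM. In the Young order, GMPs and MPP4 (adjusted p = 0.0269) and MPP3 and MPP2 (adjusted p = 0.176) were neighbours that were not called different (edgeR). Itgb2, its beta partner, ran from 31.4 and 29.7 CPM in Young HSCs to 158 and 172 in Young CLPs, with no neighbours in that order called different.

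Itga6, the laminin receptor subunit, was high in HSCs and early MPPs and low in MEPs and CLPs. Young libraries of HSCs (189 and 154 CPM), MPP1 (186 and 175) and MPP2 (175 and 176) were the highest. They were followed by MPP3 (142 and 145), MPP4 (93.4 and 89.0), GMPs (87.4 and 92.0), MEPs (38.3 and 36.8) and CLPs (29.6 and 28.9). The steps from MPP3 to MPP4 (log2 difference 0.65, adjusted p = 2.733e-04) and from GMPs to MEPs (1.26, adjusted p = 2.702e-09, edgeR) were called, and no other neighbours in this order were. Itga5, the fibronectin receptor subunit, was high in MEPs, at 88.9 and 109 CPM, and in HSCs, at 99.2 and 86.1, and low in CLPs, at 31.6 and 26.2. Of its neighbours in the Young order, only MPP3 and MPP4 were called different. By library total, MEPs and HSCs changed places, and so did GMPs (mean 57.1 CPM by TMM, 46.4 by total) and MPP3 (56.5 and 60.1). Itga4, the VCAM-1 receptor subunit, had 160 and 184 CPM in Young MEPs, 157 and 143 in CLPs, 156 and 137 in MPP2, 73.7 and 82.2 in GMPs and 85.3 and 61.9 in HSCs. No neighbours in the Young order of Itga4 were called different, and by library total in place of TMM the means of MPP2 (157) and CLPs (143), and of HSCs (80.2) and GMPs (63.3), changed places. Itga4 shares 1124 exon bases, 8.04% of its exons, with Cerkl on the opposite strand, and since no use of strand was stated its counts are uncertain to that extent.

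Itga9 and Itga2 had their highest levels in the Lin- Sca-1+ c-Kit+ fractions. Itga9 had 12.6 to 29.3 CPM in Young HSCs and MPPs, 6.00 and 4.86 in Young CLPs, 0 and 0.691 in Young GMPs and 0 counts in all 4 MEP libraries. Itga2, a collagen receptor subunit, had 6.37 to 8.96 CPM over the Young MPP libraries and 1.94 and 0.521 in Young HSCs, and the step from MPP1 to HSCs was called (log2 difference 2.48, adjusted p = 0.00223, edgeR). Itgb5 peaked in MPP4, with 115 and 107 CPM in Young libraries against 50.5 and 45.4 in MPP3 and 12.3 and 12.1 in CLPs, and the step from MPP4 to MPP3 was 1.21 on the log2 scale (adjusted p = 1.94e-05, edgeR).

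Aged cells were then compared with Young cells in each fraction. Itgb5 was called lower in 7 of 8 fractions and Itga9 in 5 of 8, while Itgb1, Itga4 and Itga2 were called in none by edgeR on all libraries. Itgb2 was called lower in 4 fractions, and Itga5, Itga6, Itgal and Itgb7 changed in HSCs or in the restricted progenitors. The 8 comparisons share no library, but they share 1 estimate of the spread.

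**Figure D2:**
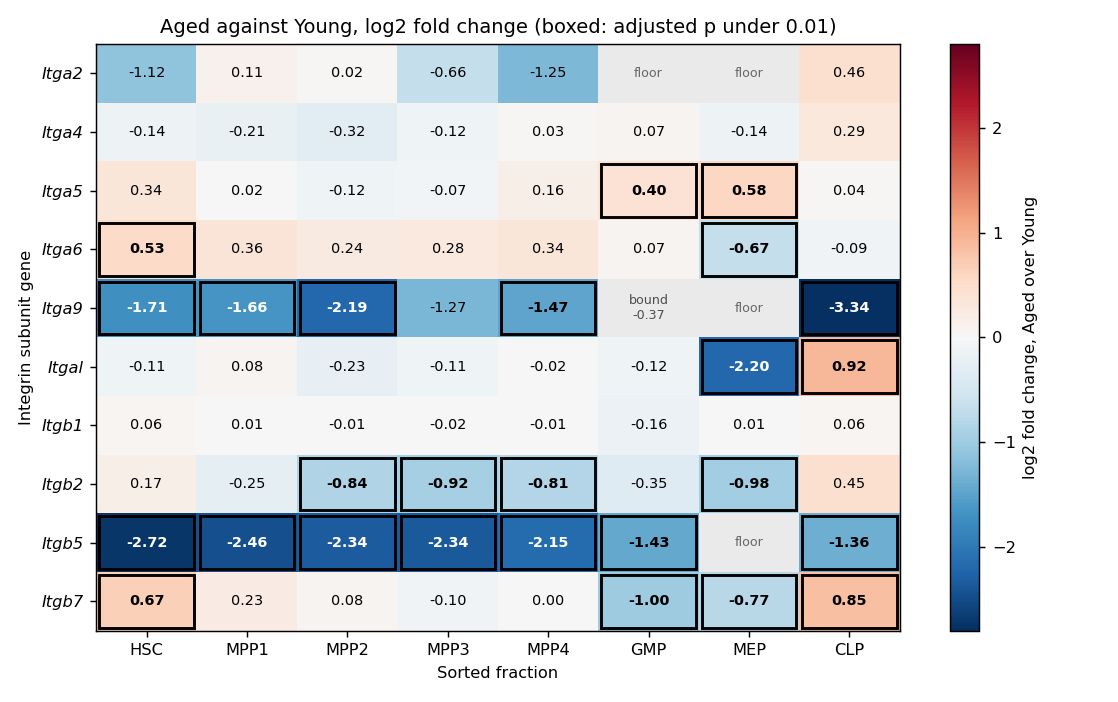
Log2 fold change of Aged over Young for each subunit gene (rows) in each fraction (columns), in colour and as a number, with boxes where the adjusted p was under 0.01. The Itgb5 row is boxed in 7 fractions, from -2.72 in HSCs to -1.36 in CLPs. Grey cells marked floor had at most 3 counts in every library, and the grey Itga9 cell gives a bound against that floor.

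In HSCs, 2 members were called higher and 2 lower, where 3.74% of all genes were called higher and 1.66% lower. Itgb5 fell from 18.9 and 23.7 CPM in the Young libraries to 2.66 and 3.75 in the Aged ones, a log2 fold change of -2.72 (SE 0.198, adjusted p = 2.679e-08, edgeR). Itga9 fell from 16 and 12.6 to 5 and 3.75 CPM (-1.71, SE 0.371, adjusted p = 0.00521, edgeR). Both genes were low in both Aged libraries, and the ages did not overlap. Itga6 rose from 189 and 154 to 276 and 219 CPM (0.53, SE 0.107, adjusted p = 0.00229, edgeR), and Itgb7 from 46.9 and 35.4 to 59.7 and 70.4 (0.67, SE 0.160, adjusted p = 0.00870, edgeR). Here too the ages did not overlap. Itgb5 stayed called without any 1 HSC library. The Itga9 call was lost without each of the 4 in turn (adjusted p = 0.0140 to 0.0520), the Itga6 call without Young replicate 2 (0.39, adjusted p = 0.0729) or Aged replicate 1 (0.35, 0.0454), and the Itgb7 call without Young replicate 2 (0.159) or Aged replicate 2 (0.0856), all by edgeR. The Itgb7 call was lost with the replicate block (0.0105) and without the filter on low counts (0.0106), and a fit of the 4 HSC libraries alone called neither Itga6 (0.151) nor Itgb7 (0.10, adjusted p by edgeR). Summed neutrophil and monocyte markers (8 genes) were 59.0 to 64.8 CPM in Young and 274 to 307 in Aged HSCs, and T and NK markers were 26.5 to 29.6 and 81.1 to 91.5. Of the 8 T and NK markers, 5 to 6 were at 0 in the Young and 5 in both Aged HSC libraries. Summed macrophage markers, which were lower with age like Itgb5 and Itga9, spanned 39.7 to 48.7 CPM at the Young age against 17.5 to 24.9 at the Aged one. Their part in these results was not tested.

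In MPP1 to MPP4, Itgb5 was lower in every fraction. Young MPP1 libraries had 17.9 and 13.8 CPM and Aged ones 3.15 and 2.61 (log2 fold change -2.46, adjusted p = 2.925e-07, edgeR). In MPP2 they had 18.7 and 19.6 against 3.53 and 4.04 (-2.34, adjusted p = 2.885e-07), and in MPP3 50.5 and 45.4 against 8.64 and 10.3 (-2.34, adjusted p = 4.567e-08). In MPP4 the values were 115 and 107 against 25.5 and 24.4 (-2.15, adjusted p = 2.47e-08). The lowest Young value was above the highest Aged value in each of these fractions, and each call was kept without any 1 library of the fraction. Itgb5, together with its partner Itgav, makes a vitronectin receptor, and Itgav was called in none of these fractions.

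Itga9 fell in MPP1 (17.0 and 15.5 to 4.50 and 5.74 CPM, log2 fold change -1.66, adjusted p = 0.00452), MPP2 (14.9 and 15.2 to 4.34 and 2.28, -2.19, adjusted p = 7.281e-04) and MPP4 (29.3 and 20.2 to 9.64 and 8.31, -1.47, adjusted p = 0.00407, all edgeR). In MPP3 it had 24.6 and 20.9 CPM in Young and 10.2 and 8.6 in Aged libraries, and the difference of -1.27 missed the threshold (adjusted p = 0.0121, edgeR). This difference was called by the DESeq2 Wald test (adjusted p = 1.823e-05), without the filter on low counts (0.00977) and when MPP3 was fitted alone (0.00533). Young and Aged values did not overlap in any of the 4. The call in MPP1 was lost without each of its 4 libraries in turn (adjusted p = 0.0228 to 0.0754), that in MPP2 without Aged replicate 2 (0.0242), and that in MPP4 without Young replicate 1 (0.0670), Aged replicate 1 (0.0268) or Aged replicate 2 (0.0526), by edgeR.

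Itgb2, the beta subunit of LFA-1, fell in MPP2 from 84.2 and 84.1 to 46.8 and 47.4 CPM (log2 fold change -0.84, adjusted p = 0.00978), in MPP3 from 76.4 and 75.5 to 35.4 and 44.9 (-0.92, adjusted p = 0.00345) and in MPP4 from 57.5 and 70.8 to 35.3 and 37.5 (-0.81, adjusted p = 0.00766, all edgeR). Itgal, its partner, was called in none of the MPP fractions. The Itgb2 call was lost without each of the 4 libraries in MPP2 (adjusted p = 0.0539 to 0.0772) and MPP4 (0.0141 to 0.0736), without Young replicate 1 (0.0270), Young replicate 2 (0.0201) or Aged replicate 1 (0.0567) in MPP3, and with the replicate block in MPP2 (0.0110), by edgeR. Summed neutrophil and monocyte markers were 726 to 769 CPM in Young and 304 to 310 in Aged MPP2, and 1229 to 1240 and 223 to 288 in MPP3. In MPP4 they were 55.1 to 61.9 and 73.2 to 73.7. The part of these markers in the Itgb2 result was not tested.

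Within MPP1, 0 members were called higher and 2 lower (4.71% and 2.09% of all genes). The same counts were 0 and 3 for MPP2 (4.49% and 3.31%), 0 and 2 for MPP3 (8.14% and 5.79%) and 0 and 3 for MPP4 (10.3% and 6.27%). Averaging the age difference over the 4 MPP fractions, Itgb5 (-2.32, SE 0.0912, adjusted p = 5.485e-13), Itga9 (-1.65, SE 0.180, adjusted p = 4.748e-07) and Itgb2 (-0.71, SE 0.107, adjusted p = 1.276e-05) were lower and Itga6 was higher (0.30, SE 0.0539, adjusted p = 7.624e-05, all edgeR). Within single MPP fractions Itga6 was not called, but fits of 4 libraries alone called it in MPP1 (adjusted p = 0.00231) and MPP2 (0.00255), and the DESeq2 Wald test in MPP1 (0.00589). That is 1 member higher and 3 lower, where 18.9% and 17.7% of all genes were called. Summed macrophage markers (8 genes) fell with age in these fractions too, from 148 to 159 CPM in Young MPP2 to 44.6 to 47.5 in Aged MPP2 and from 53.4 to 60.7 in Young MPP4 to 10.6 to 12.4 in Aged MPP4. Among Young libraries, Itgb5 was higher in MPP4 than in MPP2, and the macrophage sum was higher in MPP2. That contrast between fractions of 1 age does not bear on the difference with age. None of the 8 macrophage markers was at 0 in these libraries. The fall was not particular to macrophage markers. Erythroid, megakaryocyte and platelet, and stroma and endothelium sums were also lower with age in each of MPP1 to MPP4. Young MPP2 libraries held 945 and 991 CPM of erythroid markers (9 genes), Aged ones 235 and 223. For stroma and endothelium markers (7 genes), MPP3 dropped from 131 and 131 CPM to 18.2 and 19.4. T and NK sums were higher with age in each MPP fraction. The part of all these markers in the Itgb5 result was not tested.

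**Figure D3:**
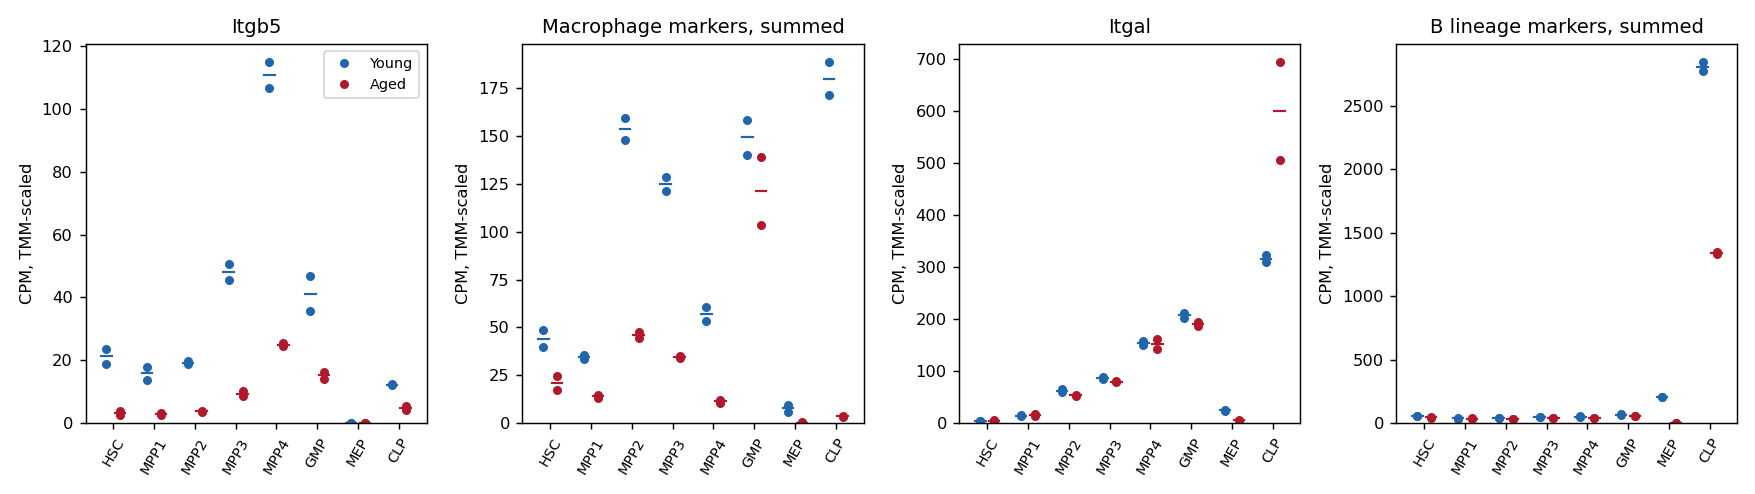
TMM-scaled CPM in each library (Young blue, Aged red, bar at the mean of 2) for Itgb5, the sum of 8 macrophage markers, Itgal and the sum of 8 B lineage markers, on linear axes that start at 0. Young Itgb5 peaks in MPP4, at 107 to 115 CPM, and the macrophage sum there is 53.4 to 60.7. In Aged MPP4 they are at 24.4 to 25.5 and 10.6 to 12.4 CPM.

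In GMPs, 1 member was called higher and 2 lower (9.93% and 8.97% of all genes). Itgb5 fell from 35.8 and 46.7 to 14.2 and 16.4 CPM (log2 fold change -1.43, adjusted p = 4.108e-06) and Itgb7 from 69.3 and 69.3 to 27.1 and 42.0 (-1.0, adjusted p = 9.318e-05, edgeR). Both calls were kept without any 1 GMP library. Itga5 rose from 53.0 and 61.2 to 75.4 and 75.5 CPM (0.40, adjusted p = 0.00809), a call lost without Young replicate 1 (0.111), Aged replicate 1 (0.0505) or Aged replicate 2 (0.0444, edgeR). It was lost too without the filter on low counts (0.0125), and a fit of the 4 GMP libraries alone called neither Itga5 (0.0524) nor Itgb7 (0.0260). Itga9 had 10 counts in 1 Young GMP library and 0 in the other 3, so no fold is given beyond a bound of -0.37 on the log2 scale against the floor of 3 counts per library. That gene was not called in GMPs, although it was without Young replicate 1 (adjusted p = 0.00593, edgeR). Erythroid markers (9 genes) summed to 776 to 849 CPM in Young and 31.4 to 84.4 in Aged GMPs, and basophil and mast cell markers to 1114 to 1141 and 772 to 799. T and NK markers (8 genes) summed to 706 to 753 in Young and 996 to 1074 in Aged GMPs. Of these 8, 6 were at 0 in both Young libraries and 5 in both Aged ones, so few genes made up the sum. Macrophage markers summed to 140 to 158 and 103 to 139 CPM, with 5 of 8 at 0 in both Aged libraries. The part of these markers was not tested.

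In MEPs, 1 member was called higher and 4 lower (9.09% and 11.7% of all genes). Itgal fell from 26.2 and 23.5 to 3.65 and 7.06 CPM (log2 fold change -2.20, adjusted p = 2.959e-07, edgeR), and this call was kept without any 1 MEP library. Itgb2 fell from 48.7 and 31.9 to 19.2 and 21.8 (-0.98, adjusted p = 0.00270), Itgb7 from 41.2 and 39.9 to 20.1 and 27.3 (-0.77, adjusted p = 0.00144) and Itga6 from 38.3 and 36.8 to 20.8 and 26.2 (-0.67, adjusted p = 2.183e-04). Itga5 rose from 88.9 and 109 to 131 and 165 (0.58, adjusted p = 2.71e-04, all edgeR). No Aged value overlapped the Young ones for these 5 genes. Without Young replicate 1 the calls of Itga5 (adjusted p = 0.0103), Itgb2 (0.0742) and Itgb7 (0.01001) were lost, without Aged replicate 1 those of Itga6 (0.0111), Itgb2 (0.0347) and Itgb7 (0.0427), and without Aged replicate 2 that of Itga5 (0.32, adjusted p = 0.0537), by edgeR. A fit of the 4 MEP libraries alone kept only Itgal, with adjusted p = 0.0369 for Itga5, 0.0224 for Itga6, 0.0218 for Itgb2 and 0.0200 for Itgb7 (edgeR). The B lineage sum was 205 to 210 CPM in Young and 0.861 to 1.22 CPM in Aged MEPs, with 0 of 8 markers at 0 in Young and 6 of 8 at 0 in Aged libraries. T and NK markers summed to 31.0 to 33.0 CPM in Young and 14.0 to 18.9 in Aged MEPs, and macrophage markers to 6.10 to 9.41 and 0 to 0.602. The part of these markers was not tested. Itgb5 and Itga9 had 0 counts in all 4 MEP libraries.

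In CLPs, 2 members were called higher and 2 lower (5.71% and 4.73% of all genes). Itgal rose from 324 and 309 to 695 and 507 CPM (log2 fold change 0.92, adjusted p = 4.346e-04) and Itgb7 from 281 and 293 to 582 and 449 (0.85, adjusted p = 3.842e-04, edgeR). Itga9 fell from 6.00 and 4.86 to 0.309 and 0.743 (-3.34, adjusted p = 2.077e-04) and Itgb5 from 12.3 and 12.1 to 5.33 and 4.16 (-1.36, adjusted p = 7.04e-05, edgeR). The ages did not overlap for these 4 genes, and the calls of Itga9 and Itgb5 were kept without any 1 CLP library. The Itgal call was lost without Young replicate 2 (0.0104) or Aged replicate 1 (0.0241), and that of Itgb7 without Aged replicate 1 (0.0193). A fit of the 4 CLP libraries alone called none of the 4, with adjusted p = 0.0179 for Itga9, 0.0286 for Itgal, 0.0210 for Itgb5 and 0.0264 for Itgb7 (edgeR). Itgb2 had 158 and 172 CPM in Young and 298 and 153 in Aged libraries, so the ages overlapped (0.45, not called), and it was called without Aged replicate 2 (0.86, adjusted p = 0.00121, edgeR). The basophil and mast cell sum, the B lineage sum (2771 to 2844 against 1335 to 1350 CPM) and the macrophage sum (171 to 189 against 3.49 to 3.94) were lower in Aged CLPs. The erythroid sum was 1375 and 1425 CPM in Young and 523 and 77.7 in Aged CLPs, and the megakaryocyte and platelet sum (8 genes) 40.5 and 39.3 against 130 and 203, so the Aged CLP libraries stood apart from each other in both. The part of these markers was not tested.

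Itgb1, the common beta partner, was called in no fraction. Its log2 difference lay between -0.16 (GMPs, SE 0.102) and 0.06 (CLPs, SE 0.102), and its level ranged from 239 to 415 CPM over all 32 libraries. Itga4 differed by -0.32 in MPP2 (SE 0.159, adjusted p = 0.194, but 0.00760 in a fit of the 4 MPP2 libraries alone) to 0.29 in CLPs (SE 0.159, adjusted p = 0.219, edgeR). Itga2 had -1.25 in MPP4 (3.56 and 2.17 CPM in Aged against 7.05 and 6.62 in Young, SE 0.492, adjusted p = 0.0686, edgeR), which the DESeq2 Wald test called (-1.31, adjusted p = 0.00421), and it had at most 129 counts in any library.

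Per kilobase, the ratio of Itgb7 to Itgb1, the beta subunits that compete for Itga4, differed between fractions. Its log2 value was -2.0 and -2.36 in Young HSCs, -1.18 and -1.21 in Young MPP4 and 0.70 and 0.83 in Young CLPs, and it passed 0 only in CLPs. In Aged CLPs it was 1.64 and 1.45, and in Aged GMPs -2.77 and -2.10 against -1.58 and -1.53 in Young ones. In Aged MEPs it was -3.75 and -3.31 against -2.77 and -2.69. Aged HSCs had -1.90 and -1.20, both above the Young values, but these libraries stood apart from each other. Aged MPP4 had -1.21 and -1.15.

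**Figure D4:**
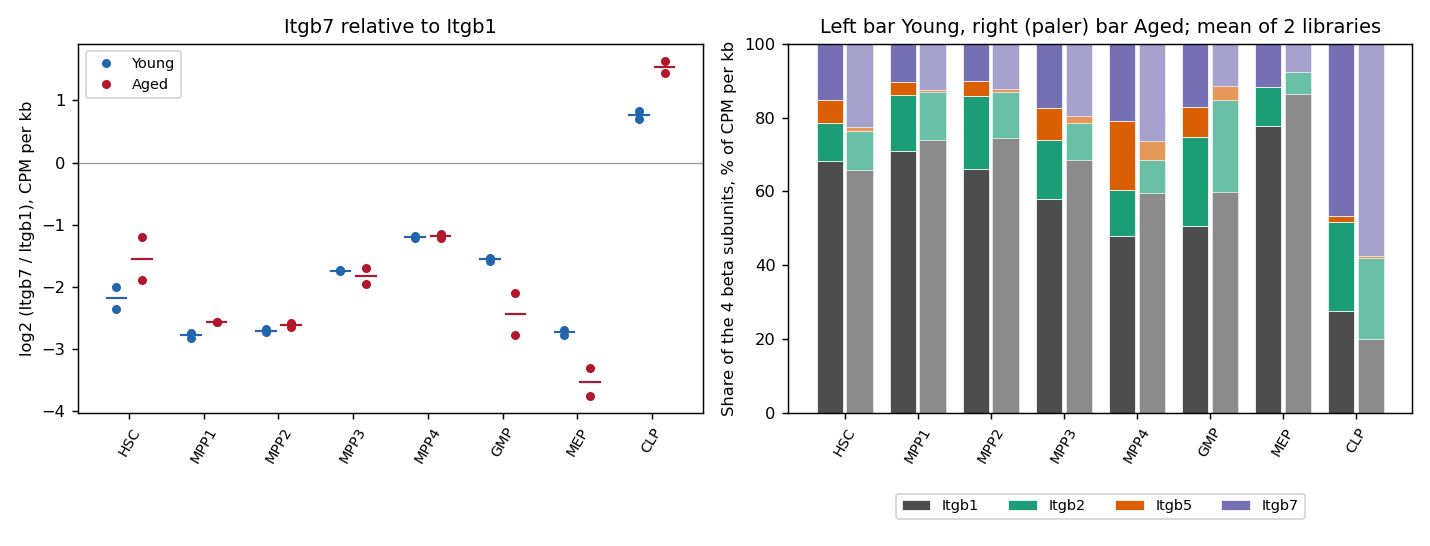
Left, log2 ratio of Itgb7 to Itgb1 in CPM per kb in each library, with a line at 0 and bars at the mean of 2. Right, mean share of each of 4 beta subunits in percent of their summed CPM per kb, Young left and Aged (paler) right. Itgb7 exceeds Itgb1 only in CLPs, and the Itgb5 share in MPP4 is 18.7% in Young and 5.28% in Aged libraries.

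The age difference of each restricted fraction, and of HSCs, was set against the mean over MPP1 to MPP4. In HSCs 0 of 10 members were called (3.00% of all genes). There the adjusted p by edgeR was 0.0332 for Itgb2, 0.0362 for Itgb7 and 0.0851 for Itga5. The DESeq2 Wald test called Itgb2 (0.91, adjusted p = 0.00225) and Itgb7 (0.65, adjusted p = 0.00277) in HSCs, and its share of all genes is not given here. By edgeR, the number called was 2 of 10 for GMPs (26.6% of all genes), 4 of 10 for MEPs (24.8%) and 4 of 10 for CLPs (22.6%). For Itgb5 the fall was smaller in GMPs (difference 0.89, SE 0.190, adjusted p = 9.776e-04) and in CLPs (0.96, SE 0.220, adjusted p = 0.00206, edgeR) than in MPPs. Itgb7 differed downward in GMPs (-1.05, adjusted p = 9.366e-05) and MEPs (-0.82, adjusted p = 0.00159) and upward in CLPs (0.80, adjusted p = 9.148e-04, edgeR). In MEPs Itgb5 and Itga9 could not be fitted, since all MEP libraries had 0 counts.

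Other genes of the pathway came from 4 lists. Of 17 other integrin subunits, 11 were tested, and HSCs had 3 higher and 0 lower (3.74% and 1.66% of all genes): Itgam (log2 fold change 1.57), Itga2b (0.96) and Itgb3 (1.25, adjusted p = 0.00871, edgeR), the last 2 being the subunits of the platelet fibrinogen receptor. Itgb3 had 43.3 and 38.1 CPM in Young and 101 and 93.0 in Aged HSCs. In MPP1, MPP2, MPP4, GMPs and CLPs 0 of 11 were called by edgeR. MPP3 had 2 lower (Itga1 and Itgam, where 5.79% of all genes were). MEPs had 3 lower (11.7% of all genes), with Itga2b at -0.70 and Itgav at -1.63. Itgam, also called lower in MEPs, had 15 and 6 counts in Young and 0 and 2 in Aged libraries. Both Aged libraries were under the floor of 3 counts, so no fold is given.

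Of 28 ligands, 23 were tested. Vcam1, a ligand of Itga4 and Itga9, was called lower in 7 of 8 fractions, from -1.58 in MPP1 to -5.23 in CLPs, and is also 1 of the 8 macrophage markers. It had 10.8 and 14.1 CPM in Young and 1.49 and 1.88 in Aged HSCs (-2.88, adjusted p = 3.419e-07, edgeR), and in GMPs it was not called (-0.06). Thbs1 and Jam3 fell in all 4 MPP fractions and Icam1 in MEPs (-3.39, adjusted p = 3.494e-07, edgeR). Fn1, the fibronectin gene, fell in MPP3 (-5.19, adjusted p = 1.093e-04, edgeR) and was called in no other single fraction. Its age difference averaged over MPP1 to MPP4 was called lower too. Jam2 rose in HSCs (1.62, adjusted p = 7.502e-05) and fell in MPP3 (-1.21, adjusted p = 0.00699) and MPP4 (-1.90, adjusted p = 0.00500, edgeR), and it was called higher in MEPs. Of the others, Emilin1 (0.66) and Cdh1 (1.33) rose in CLPs. Madcam1 was not tested because of its low counts.

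Of 39 activators and adaptors, 35 were tested. Zyx, the zyxin gene of focal adhesions, fell in HSCs, all 4 MPP fractions and MEPs (-1.13 in MEPs) and rose in CLPs (0.75, adjusted p = 1.09e-05, edgeR). In GMPs 7 were higher and 3 lower (9.93% and 8.97% of all genes), with Ptk2b (0.94), Rasgrp2 (0.58) and Tln1, the talin gene (1.01, adjusted p = 8.223e-06), higher and Rap1b (-0.69) lower. In MEPs 2 were higher and 11 lower (9.09% and 11.7% of all genes), with Rasgrp2 at -4.50 (adjusted p = 1.489e-15), and in CLPs 7 were higher and 1 lower (5.71% and 4.73% of all genes), with Fyb (1.23) and Skap2 (0.61) higher. Fermt3, which encodes kindlin-3, fell in MPP2 (-0.29, adjusted p = 0.00270) and MPP3 (-0.27, adjusted p = 0.00310, all edgeR). Of 10 tetraspanins and membrane partners, all tested, Cd53 rose in HSCs (1.48) and MPP1 to MPP3 and fell in GMPs (-0.66) and MEPs (-2.97), and Cd82 fell in HSCs (-0.52) and all MPP fractions and rose in CLPs (0.63). The median of the members' log2 fold changes was between -0.41 in MEPs and 0.18 in CLPs, where the medians of all genes tested were 0.

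Over the 16 group means, which share these libraries, the genes whose log2 CPM followed each member most closely were named as a description. Scarf1 (Pearson r = 0.98), Krt18 (0.98) and Tmem237 (0.98) were nearest to Itga6. BC035044 (0.97), Cd52 (0.97) and Tnfaip8l2 (0.96) were nearest to Itgal, and Wsb1 (0.95), Smad2 (0.95) and Klhl35 (0.94) to Itgb5. Pde4b (0.96) and Abcc3 (0.96) were among the nearest to Itga9, and Pirb (0.94), Fsip1 (0.94) and Lifr (0.94) to Itgb7. For Itgb2 they were Evi2a (0.93), Cybb (0.92) and Acbd5 (0.92), for Itgb1 D330045A20Rik (0.96), Zfp445 (0.91) and BC052040 (0.90), for Itga5 Pqlc1 (0.93), Rint1 (0.93) and Creg1 (0.93), and for Itga4 Lsm14a (0.89), Ncr1 (0.88) and Myef2 (0.87). Nxph1 (0.95) and Hnf4a (0.95) were among the nearest to Itga2. Between members, Itga2 with Itga9 (0.83) and Itgal with Itgb2 (0.80) were the closest, and Itga5 with Itgal (-0.87) the most opposed.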

How the data were processed

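RNA was extracted from sorted cells, amplified with a low-input kit, and sequenced as single reads. The authors aligned reads to mm10 with TopHat2 2.0.13 and Bowtie2 2.1.0 and took gene counts from StringTie, so that the deposited table holds raw counts per gene and library as whole numbers. No use of strand was stated, and overlapping genes are uncertain. A deposited table of DESeq2-normalized values and 8 tables of the authors' own comparisons (fold changes and p-values) were not used. From the counts, 32 libraries in 16 groups were fitted together (edgeR 4.0.16, R 4.3.3, TMM, filterByExpr, quasi-likelihood F-test, 16 residual degrees of freedom), with Benjamini-Hochberg adjustment within each contrast and a threshold of 0.01. TMM factors were 0.807 to 1.11 and the common dispersion was 0.0127. Tested on simulated data for HSCs with 14154 genes, 77% of genes changed by 1 and 96% of those changed by 2 on the log2 scale were recovered. Gene positions and exon lengths came from GENCODE M21 (GRCm38).

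The members and gene lists were chosen with earlier results of these data known. Named genes were all members, partners and ligands fixed by name, up to 3 called genes per list and fraction with the smallest adjusted p, and the 3 nearest patterns per member, of which some are not reported here. The alternatives were DESeq2 1.42.0 size factors and Wald test, no filter, a replicate block, a threshold of 0.05, each fraction fitted alone, and each library left out. Replicate differences showed little correlation between groups: over 120 pairs of groups it was -0.07 to 0.11. That does not tell whether libraries with the same replicate number came from the same pool, because noise of single libraries could hide it.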

Additional observations from a re-analysis of the deposited data

Results flagged for a closer look

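The results flagged are those in which the age difference of a restricted fraction differed from the mean over MPP1 to MPP4, tested as an interaction (edgeR, adjusted p under 0.01). In GMPs these were Itgb5 (0.89, adjusted p = 9.776e-04) and Itgb7 (-1.05, adjusted p = 9.366e-05). In MEPs they were Itga5 (0.58, adjusted p = 6.61e-04), Itga6 (-0.98, adjusted p = 7.551e-06), Itgal (-2.13, adjusted p = 1.173e-06) and Itgb7 (-0.82, adjusted p = 0.00159). In CLPs they were Itgal (1.00, adjusted p = 2.963e-04), Itgb2 (1.16, adjusted p = 4.938e-04), Itgb5 (0.96, adjusted p = 0.00206) and Itgb7 (0.80, adjusted p = 9.148e-04). Of these, the call of Itgb5 in GMPs was lost without Young GMP replicate 1 (0.70, adjusted p = 0.0122) or Aged GMP replicate 2 (0.77, 0.0135), that of Itga5 in MEPs without Young MEP replicate 1 (0.44, 0.0136) or Aged MEP replicate 2 (0.35, 0.0418), and that of Itgb7 in MEPs without Aged MEP replicate 1 (-0.62, 0.0326). In CLPs, the call of Itgb2 was lost without Aged CLP replicate 1 (0.60, adjusted p = 0.0253), that of Itgb5 without Young CLP replicate 1 (0.98, 0.0102), Young CLP replicate 2 (0.95, 0.0123) or Aged CLP replicate 1 (0.77, 0.0464), and that of Itgb7 without Young CLP replicate 1 (0.77, 0.0101) or Aged CLP replicate 1 (0.60, 0.0230), all by edgeR. Groups of 2 libraries are too small for a test of single outlying samples.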

How the results depend on the processing

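Over 1798 recomputed member values, 1605 kept direction and side of the threshold, 67 lost the call, 24 gained one and 102 changed sign without a call in either setting. No called value reversed. The counts of members called were most changed when each fraction was fitted on its 4 libraries alone, which leaves 2 residual degrees of freedom: 2 in HSCs, 5 in MPP2, 1 in GMPs, 1 in MEPs and 0 in CLPs. Such fits also gained the call of Itga6 in MPP1 and that of Itga9 in MPP3. For HSCs against the MPP mean, the DESeq2 Wald test called Itgb2 and Itgb7, and so did edgeR at a threshold of 0.05. The share of all genes called is not given here for any of the alternatives, so their counts of members have no background beside them. Leaving out 1 library at a time gave 1 to 3 members in HSCs, 1 in MPP1, 1 to 2 in MPP2, 1 to 2 in MPP3, 1 to 2 in MPP4, 2 to 5 in MEPs and 2 to 5 in CLPs, and 1 to 2 for GMPs and 1 to 4 for CLPs against the MPP mean. The lone library left in a group is then assumed to vary like the other groups. With the replicate block the counts were 3 in HSCs and 2 in MPP2, and no other age call in a fraction changed. Whether equal replicate numbers share more than a label is not known. By library total in place of TMM, 4 members kept the full order of Young fractions. Depth limits Itga2 and Itga9, which had under 10 counts in some libraries.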
